A study of Mus musculus with 8 samples.

Results

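Cholesterol synthesis, uptake and efflux were followed through 30 genes in cultured mouse hepatocytes with and without Lcmr1. The genes were taken by symbol from the study's table of 27277 gene rows, and all 30 were found and had enough reads to be tested. They are 4 regulators of the sterol feedback loop (Srebf2, Scap, Insig1, Insig2), 19 enzymes of the mevalonate, isoprenoid and sterol steps, the transfer protein Stard4, the receptors Lrp1 and Scarb1, the transporters Abca1, Abcg5 and Abcg8, and the esterifying enzyme Soat2. The 19, called synthesis enzymes here, include Ggps1, which lies on a side branch to geranylgeranyl diphosphate.

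Hepatocytes make cholesterol from acetyl-CoA through mevalonate, isoprenoid diphosphates, squalene and lanosterol. When sterols in the endoplasmic reticulum are low, Scap carries the membrane-bound precursor of the transcription factor SREBP2, the product of Srebf2, to the Golgi, where proteases release its active part, which binds sterol regulatory elements in promoters of synthesis genes. Insig proteins hold Scap in the endoplasmic reticulum when sterols are plentiful. Liver also takes up lipoproteins through receptors and passes sterols to high-density lipoprotein and bile through ABC transporters.

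The gene named Lcmr1 in the labels is Med19, which encodes part of Mediator, the coactivator complex between transcription factors and RNA polymerase II. Controls carried floxed alleles (Lcmr1 f/f), and knockouts carried the same floxed alleles with an albumin-cre transgene. That transgene is active in hepatocytes, and the alleles may stay intact in other liver cells. Both groups were primary hepatocytes kept in culture for 24 h and given 100 nM glucagon for 12 h, so no group was without glucagon. RNA sequencing covered 3 libraries per genotype. Nothing in the labels says whether these came from separate mice, so the p-values cover only the spread of these libraries, which may be technical. Chromatin immunoprecipitation (ChIP) sequencing covered 1 library per genotype, and for its target the sample titles name RNA polymerase III whereas the series' design text names Lcmr1, so the regions are called ChIP regions here without a target.

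Total counts per RNA library ran from 22191786 to 26595249. Levels are given as CPM, the counts of a gene relative to its library's total, scaled by TMM, a method that assumes most genes do not differ between libraries. Its factors were 0.773 to 0.837 in the controls and 1.2 to 1.27 in the knockouts. Without them the median log2 change of all tested genes moved from 0.01 to 0.60, so every change below is relative to the bulk of genes. Med19 was at 7.5, 10.8 and 13.4 CPM in control libraries and at 2.91, 5.27 and 3.02 CPM in knockout libraries, a log2 change of −1.50 ± 0.31 (SE, edgeR adjusted p = 0.012). The summed level of 11 hepatocyte markers was 113131 to 119775 CPM in control libraries and 31132 to 39625 CPM in knockout libraries, with 10 of the 11 lower at the threshold. The summed level of 14 macrophage markers was 430 to 528 CPM and 848 to 1003 CPM, with 10 of the 14 higher. Of 8 endothelial and 8 stellate cell markers, 1 each was higher, and of 5 bile duct markers tested none passed. None of the defining markers was at 0 in all libraries. In bulk RNA, fewer cells of a type and less RNA per cell cannot be told apart, and the part of these shifts in the results below was not tested.

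Control library 1 stood apart from the other controls. Comparing its counts with theirs gave chi-square values of 149.7 and 143.2 per degree of freedom, against 7.41 between controls 2 and 3 and 27.3 to 54.7 among the knockouts. The cholesterol genes were among those it differed in: 11 of 30 were at least 1.5-fold above both other controls, against 10.5% of all tested genes, and 4 were at least 1.5-fold below, against 13.4%. At 2-fold these were 7 members above, against 5.11%, and 2 below, against 6.55%. Of the 11, 9 were synthesis enzymes and 2 were regulators. The 4 below were Sc5d, Abcg5, Abcg8 and Soat2. Control 1 also had the highest summed level of the 6 bile duct markers, 167 CPM. The other 5 libraries had 41.0 to 75.7 CPM. The sum of control 1 rested in large part on 1 gene, Sox9. The mean of Sox9 over the controls, 52.5 CPM, was above the whole sums of controls 2 and 3, 41.0 and 49.3 CPM. The sum does not speak for all 6 markers, and their part in the levels of control 1 was not tested. The log2 changes of the members are therefore given with and without this library. Control 1 was set apart after the data were seen. The fit without it keeps only controls 2 and 3, the most alike pair, so its adjusted p may be too small.

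In the knockout, 7 of the 30 genes passed the test. Dhcr7, Mvk and Acat2 rose by 1.71-fold to 1.93-fold, and Fdps, Insig2, Lrp1 and Scap fell to 0.24 to 0.586 of the control level. Over all 15135 genes tested with edgeR, 25.5% were called at an adjusted p under 0.05, 12.6% higher and 13.0% lower, so 3 higher and 4 lower among 30 is near the background. The median log2 change was −0.02 over the 30 genes and 0.01 over all tested genes. All 3 knockout values lay above all 3 control values for 3 members, against 23.5% of tested genes, and below them for 6, against 22.4%; the latter were the 4 called genes with Ebp and Abca1. When control 1 was left out, 31.3% of 15741 tested genes were called, 15.3% higher and 16.0% lower, and 4 members passed higher (Srebf2, Sqle, Lss and Msmo1) and 7 lower (Scap, Insig2, Fdps, Lrp1, Sc5d, Abcg5 and Abcg8). Acat2, Mvk and Dhcr7 no longer passed then. With library size in place of TMM, 55.0% of tested genes were called and 13 members passed higher and 3 lower, against 50.9% and 4.08% of tested genes.

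**Figure D1:**
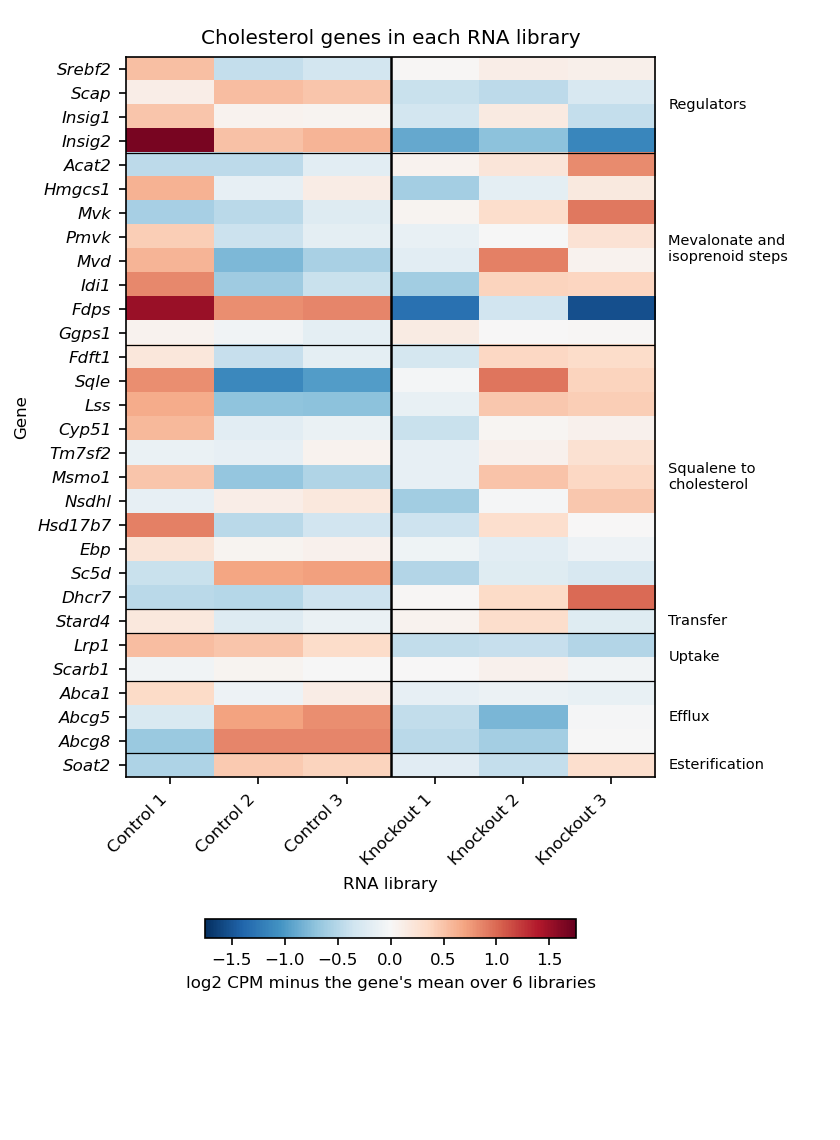
Each cell gives the log2 CPM of a gene (rows, grouped by role) in an RNA library (columns) minus the gene's mean over the 6 libraries. Control 1 is higher than controls 2 and 3 for 9 of 19 synthesis enzymes by at least 1.5-fold, and lower for Abcg5, Abcg8 and Soat2.

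By role, 3 of the 19 synthesis enzymes rose and 1 fell, 12 had positive and 7 negative log2 changes, and the median log2 change was 0.11. Over all 15135 tested genes 12.6% rose, 13.0% fell, 7701 log2 changes were positive and the median was 0.01. Among the 6 genes of uptake, efflux and esterification none rose and 1 fell, 5 of 6 log2 changes were negative, and the median was −0.55. These counts of calls are small and near the shares over all genes. Without control 1 the median log2 changes were 0.40 and −0.68, with 3 enzymes higher and 2 lower, and none of the 6 higher and 3 lower. Over all tested genes that fit gave 15.3% higher, 16.0% lower and a median log2 change of 0.04. Of these 3 lower genes, Abcg5 and Abcg8 share annotated bases and are not independent observations. The difference between the groups of genes was not tested, and with library size in place of TMM the medians were 0.70 and 0.03 against 0.60 over all genes.

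**Figure D2:**
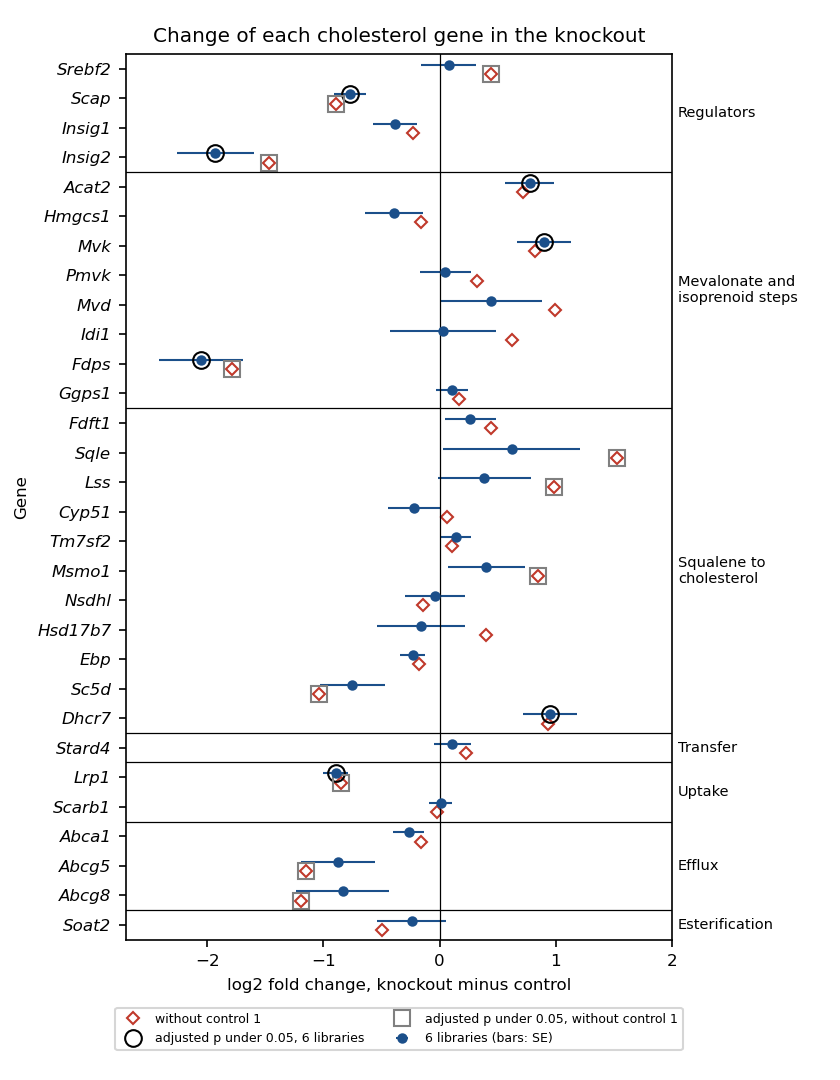
Log2 fold change of each gene, knockout minus control, from the fit to all 6 libraries (filled points, bars are SE; black rings mark an edgeR adjusted p under 0.05) and without control 1 (open diamonds; grey squares mark the same threshold). Leaving out control 1 moves Sqle, Lss and Msmo1 to the right and Abcg5, Abcg8 and Sc5d to the left.

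Sequence upstream of the annotated starts was taken from RefSeq (mouse build GRCm38.p6) for the 24 members that had an entry; Fdps, Fdft1, Sqle, Stard4, Scarb1 and Soat2 are named only. For each gene the RefSeq start nearest the annotated gene start was used. Both strands of the 250 bases before it were searched for the sterol regulatory element TCACNCCAC, the CCAAT box CCAAT and the GC box GGGCGG. These are the kinds of site that SREBP2, NF-Y and Sp1 are known to bind. Other RefSeq starts, which Insig2, Dhcr7, Scap, Pmvk and Abcg8 have, were left out of these counts. The CCAAT box was present in 17 of 24 members and in 14 of 16 synthesis enzymes, against 33.8% of 32851 RefSeq promoters. A GC box was present in 18 of 24 and in 14 of 16, against 32.7%. TCACNCCAC was found in 1 of 24, Hmgcs1, against 1.05%. Each member enters with 1 start and passed the count filter, whereas the background holds all RefSeq starts, of tested and untested genes. These sets are unlike, so the shares are not shown to be particular to cholesterol genes. The matches are letters in a window, not measured binding. A window without a match is not shown to lack an element, since only the patterns above were searched, at 1 start per gene. The upstream sequences of 6 genes that passed the test are printed beside their values, 5′ to 3′ on the gene's strand, with CCAAT and GC boxes on either strand in capitals.

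Insig2 and Scap, whose proteins bind each other in the sterol feedback loop, both fell. Insig2, which encodes an endoplasmic reticulum protein that retains Scap, had 677, 306 and 324 CPM in control libraries 1 to 3 and 115, 130.3 and 97.5 CPM in knockout libraries 1 to 3. All knockouts were below all controls, and control 1 was 2.09-fold above the higher of the other controls. The log2 change was −1.93 ± 0.33 (SE, n = 3 per group, edgeR adjusted p = 0.00703), or 3.81-fold lower, and −1.47 without control 1 (edgeR adjusted p = 0.000107). Scap, the escort of the SREBP precursors, had 191, 255 and 247 CPM in control libraries and 134, 128 and 145 CPM in knockout libraries, again without overlap. Its log2 change was −0.77 ± 0.14 (SE, edgeR adjusted p = 0.00685), and −0.89 without control 1. With library size in place of TMM the log2 change of Scap was −0.19 and no longer passed (edgeR adjusted p = 0.351). Upstream of Insig2 (chr1:121332590-121332839, minus strand) the window held 3 CCAAT boxes and no GC box. Upstream of Scap (chr9:110333038-110333287, plus strand) it held none of the motifs. The pair is shown because both fell with different promoter letters at the starts used. Insig2 has other RefSeq starts inside the gene, which were not searched.
Insig2: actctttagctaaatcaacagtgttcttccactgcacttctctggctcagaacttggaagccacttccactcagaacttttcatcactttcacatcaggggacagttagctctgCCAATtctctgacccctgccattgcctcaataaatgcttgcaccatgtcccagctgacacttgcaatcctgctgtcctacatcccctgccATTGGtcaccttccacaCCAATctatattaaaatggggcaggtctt
Scap: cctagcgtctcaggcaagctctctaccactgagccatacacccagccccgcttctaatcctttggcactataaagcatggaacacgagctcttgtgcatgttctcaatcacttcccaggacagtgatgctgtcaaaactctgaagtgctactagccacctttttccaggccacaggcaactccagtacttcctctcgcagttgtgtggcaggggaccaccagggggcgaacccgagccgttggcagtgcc

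Insig1, the sister gene of Insig2 and itself a well-known SREBP target, overlapped between genotypes. Its levels were 503, 375 and 371 CPM in control libraries and 287, 402 and 269 CPM in knockout libraries, with knockout 2 inside the control range. The log2 change was −0.38 ± 0.19 (SE, edgeR adjusted p = 0.181), and −0.23 without control 1. Srebf2 had 181, 93.7 and 100.4 CPM in control libraries and 127, 136 and 133 CPM in knockout libraries. The knockouts were closely grouped between control 1 and the other controls, so the log2 change was 0.08 ± 0.24 (SE, edgeR adjusted p = 0.841) with control 1 and 0.44 without it (edgeR adjusted p = 0.0103).

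In the mevalonate and isoprenoid steps, Acat2 and Mvk rose, Fdps fell, and the other 5 enzymes did not pass. Acat2, the cytosolic thiolase that joins acetyl-CoA units at the head of the pathway, had 49.3, 49.4 and 59.9 CPM in control libraries and 71.3, 78.7 and 121 CPM in knockout libraries. Mvk, mevalonate kinase, had 18.1, 19.6 and 23.2 CPM in control libraries and 28.2, 33.8 and 51.4 CPM in knockout libraries. Neither gene's groups overlapped, control 1 was not set apart from controls 2 and 3, and knockout 3 was the highest library for both. The log2 change was 0.77 ± 0.21 (SE, edgeR adjusted p = 0.0315) for Acat2 and 0.90 ± 0.23 (SE, edgeR adjusted p = 0.0252) for Mvk. These were 0.72 and 0.82 without control 1, and 1.37 and 1.49 with library size in place of TMM. Both calls ended, with positive changes in every case, without control 1, control 2 or knockout 2, where the edgeR adjusted p reached 0.0988 for Acat2 and 0.0797 for Mvk; that of Acat2 also ended without control 3 or knockout 3. Acat2 lies beside its near-identical relative Acat3, looked up after the values of Acat2 were seen. Acat3 had 135, 171 and 157 CPM in control libraries and 79.3, 93.0 and 100.2 CPM in knockout libraries and fell, with a log2 change of −0.76 (edgeR adjusted p = 0.00687), which became −0.18 with library size in place of TMM (edgeR adjusted p = 0.358). The sources used here do not say how reads shared by such copies were counted. The 250 bases upstream of Mvk (chr5:114444019-114444268, plus strand) held 5 CCAAT boxes and 2 GC boxes, while those upstream of Acat2 (chr17:12960726-12960975, minus strand) held 1 GC box; they are shown as the early-step enzymes that rose.
Mvk: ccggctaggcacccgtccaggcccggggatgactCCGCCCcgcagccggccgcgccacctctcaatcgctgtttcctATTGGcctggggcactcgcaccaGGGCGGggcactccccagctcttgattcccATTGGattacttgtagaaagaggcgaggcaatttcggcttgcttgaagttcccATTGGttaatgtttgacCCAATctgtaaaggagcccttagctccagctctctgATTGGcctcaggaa
Acat2: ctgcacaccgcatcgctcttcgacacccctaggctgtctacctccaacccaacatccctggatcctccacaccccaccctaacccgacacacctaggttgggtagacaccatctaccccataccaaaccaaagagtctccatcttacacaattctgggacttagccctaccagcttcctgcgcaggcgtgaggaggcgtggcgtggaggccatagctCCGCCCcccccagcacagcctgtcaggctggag

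Fdps makes farnesyl diphosphate, the branch point between sterols and other isoprenoids, and had the lowest log2 change of the 30 genes. Its levels were 17.6, 10.8 and 11.1 CPM in control libraries and 2.49, 4.89 and 2.12 CPM in knockout libraries, from raw counts of 207 to 362 and of 68 to 154. The knockouts were all below the controls. Its log2 change was −2.06 ± 0.36 (SE, edgeR adjusted p = 0.00648), or 4.16-fold lower, and −1.79 without control 1 (edgeR adjusted p = 0.00578). The annotated gene contains the small nuclear RNA gene Gm22935 on the same strand, which had 5 to 42 counts of its own.

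Hmgcs1, the cytosolic HMG-CoA synthase, did not pass. It had 306, 181 and 218 CPM in control libraries and 132, 178 and 226 CPM in knockout libraries, with a log2 change of −0.40 ± 0.25 (SE, edgeR adjusted p = 0.274), and −0.16 without control 1. The groups overlapped. Its promoter held the single match to the sterol regulatory element TCACNCCAC among the members that had a sequence, at base −137 from the RefSeq start. That site is shown with its flanks (chr13:119690194-119690242, plus strand), the element in capitals, because it lies inside the control ChIP region at the Hmgcs1 start (chr13:119690190-119690680).
Hmgcs1: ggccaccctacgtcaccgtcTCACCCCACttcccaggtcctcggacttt

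Mvd, which decarboxylates mevalonate diphosphate to isopentenyl diphosphate, had 54.7, 21.1 and 24.5 CPM in control libraries and 32, 66.6 and 37.9 CPM in knockout libraries. Idi1, the isomerase that supplies the allylic starter unit, had 83.1, 30 and 35.4 CPM in control libraries and 30.3, 60.9 and 60.3 CPM in knockout libraries. Control 1 was 2.24-fold and 2.35-fold above the higher of the other controls for these genes, and both groups spread over a similar range. Their log2 changes were 0.44 and 0.03, and 0.99 and 0.62 without control 1, and neither passed in either fit. Pmvk, phosphomevalonate kinase, ranged from 27.4 to 48.2 CPM in control libraries and from 32.5 to 42.6 CPM in knockout libraries (log2 change 0.05, and 0.32 without control 1). Ggps1, which makes geranylgeranyl diphosphate for protein prenylation, ranged from 10.0 to 11.8 and from 11.3 to 12.5 CPM (log2 change 0.11 ± 0.14, SE, and 0.17 without control 1).

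From squalene to cholesterol, Dhcr7 was the only 1 of 11 enzymes called with all 6 libraries. Dhcr7 performs the last reduction, of 7-dehydrocholesterol to cholesterol, and had 78.7, 77.3 and 84.5 CPM in control libraries and 110.1, 137 and 217 CPM in knockout libraries. The controls were within a narrow range, the knockouts were all higher, and knockout 3 was the highest. The log2 change was 0.95 ± 0.23 (SE, edgeR adjusted p = 0.0236), or 1.93-fold. It was 0.93 without control 1 and 1.55 with library size in place of TMM. Leaving out any 1 library gave log2 changes of 0.62 to 1.13, but the call ended without control 1, 2 or 3 or knockout 2 (highest edgeR adjusted p = 0.078). The window upstream of Dhcr7 (chr7:143822917-143823166, plus strand) held 1 GC box and no CCAAT box and is shown beside those of Mvk and Acat2 as the late-step enzyme that rose.
Dhcr7: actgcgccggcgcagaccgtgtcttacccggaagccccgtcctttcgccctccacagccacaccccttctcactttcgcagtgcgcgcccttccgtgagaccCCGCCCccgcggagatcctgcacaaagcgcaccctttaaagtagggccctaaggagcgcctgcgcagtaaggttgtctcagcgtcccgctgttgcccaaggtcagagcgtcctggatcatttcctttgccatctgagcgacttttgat

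Sqle, Lss and Msmo1 shared a pattern in which control 1 was high, controls 2 and 3 were low, and the knockouts lay mostly between or above them. Sqle, squalene epoxidase, had 133, 34.4 and 38.5 CPM in control libraries and 73.7, 144 and 99.0 CPM in knockout libraries. Lss, which cyclises squalene epoxide to lanosterol, had 109, 42.8 and 42.3 CPM and 63.5, 96.2 and 93.2 CPM. Msmo1, the C4-methylsterol oxidase, had 195, 87.7 and 97.2 CPM and 126, 198 and 179 CPM. Every knockout was above controls 2 and 3 for all 3 genes, and only knockout 2 of Sqle and of Msmo1 exceeded control 1. With all libraries the log2 changes were 0.62 ± 0.59, 0.38 ± 0.40 and 0.40 ± 0.33 (SE), with edgeR adjusted p of 0.48, 0.518 and 0.408. Without control 1, which was set apart after the data were seen, they were 1.53, 0.98 and 0.85, with edgeR adjusted p of 0.0118, 0.00549 and 0.0116.

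**Figure D3:**
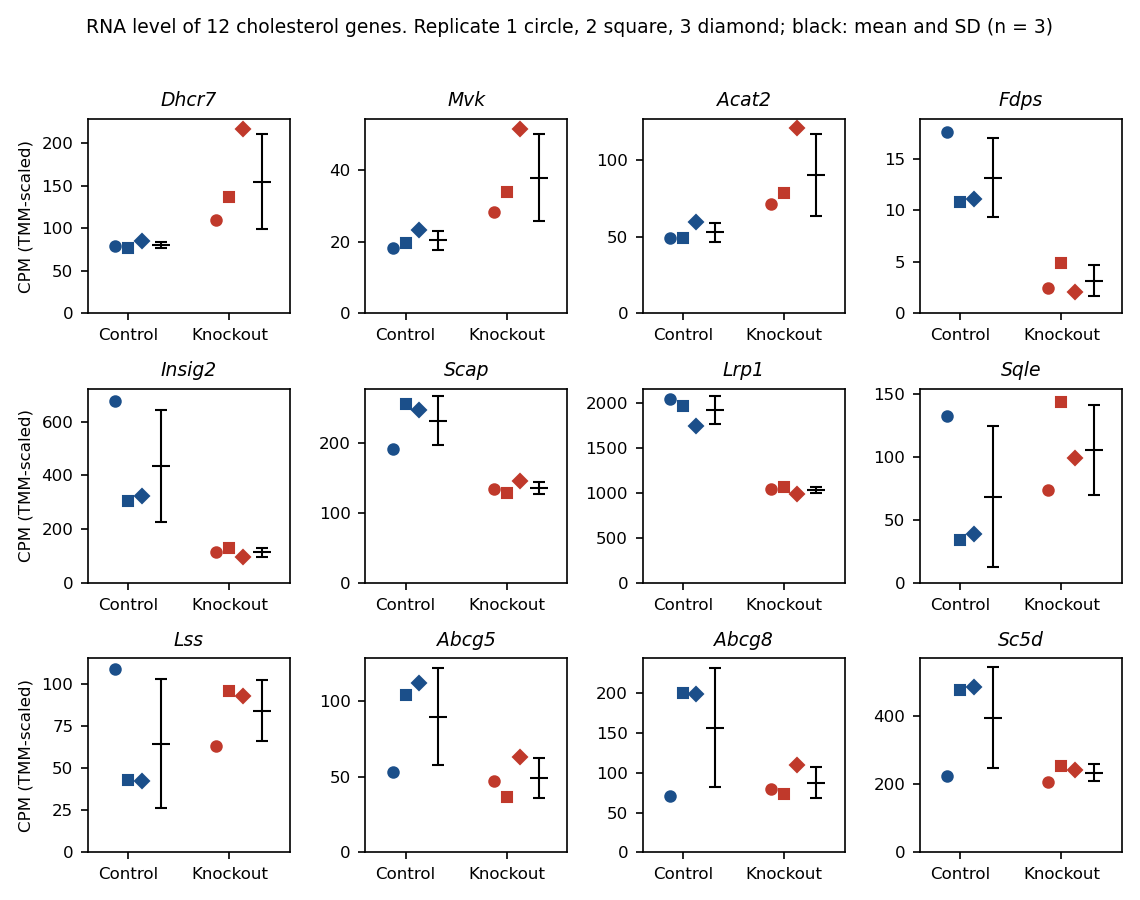
CPM (scaled by TMM) of 12 genes in each RNA library, controls in blue and knockouts in red, with mean and SD at the right of each group (n = 3). Knockouts and controls do not overlap for Dhcr7, Mvk, Acat2, Fdps, Insig2, Scap and Lrp1, while control 1 lies among or beyond the knockouts for Sqle, Lss, Abcg5, Abcg8 and Sc5d.

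Sc5d, the lathosterol desaturase that acts just before Dhcr7, moved the other way in control 1. It had 225, 477 and 487 CPM in control libraries and 207, 255 and 243 CPM in knockout libraries, so control 1 lay among the knockouts. The fitted log2 change was −0.75 ± 0.28 (SE, edgeR adjusted p = 0.0921), and −1.04 without control 1 (edgeR adjusted p = 0.000285). Hsd17b7, a 3-keto reductase of sterol demethylation, had 131, 51.4 and 56.2 CPM in control libraries and 55.1, 87.1 and 71.2 CPM in knockout libraries. Its log2 change was −0.16 with control 1 and 0.40 without it, and neither value passed. Ebp, the sterol isomerase, ranged from 245 to 278 CPM in control libraries and from 209 to 226 CPM in knockout libraries. These did not overlap, yet the log2 change of −0.23 ± 0.11 did not pass (SE, edgeR adjusted p = 0.146) and was 0.36 with library size in place of TMM (edgeR adjusted p = 0.0224). Without control 1 it was −0.18.

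The remaining 4 late enzymes overlapped between genotypes and did not pass. Fdft1, squalene synthase, ranged from 89.5 to 136 CPM in control libraries and from 96.2 to 152 CPM in knockout libraries (log2 change 0.26, and 0.44 without control 1). Cyp51, lanosterol demethylase, ranged from 138 to 233 and from 119 to 165 CPM (log2 change −0.22, and 0.06 without control 1). Tm7sf2, a sterol C14 reductase, ranged from 157 to 180.3 and from 157 to 208 CPM (log2 change 0.14, and 0.11 without control 1). Nsdhl, the C4 decarboxylase, ranged from 56.4 to 71.0 CPM in control libraries and more widely, from 40.9 to 86.9 CPM, in the knockouts (log2 change −0.04, and −0.14 without control 1). Fdft1, Cyp51 and Ggps1 share 166 to 774 annotated bases with a neighbouring gene on the opposite strand, and the strand setting of the counting is not given. Tm7sf2 shares 532 bases with a neighbour on the same strand, where a strand setting would not separate them. A part of the reads of these genes may therefore belong to the neighbour. Stard4, which moves cholesterol between membranes, ranged from 70.5 to 93.8 CPM and from 71.4 to 102 CPM (log2 change 0.11, and 0.23 without control 1).

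Of the 2 receptors, Lrp1 fell and Scarb1 did not pass. Lrp1, the large endocytic receptor for remnant lipoproteins, had 2042, 1962 and 1746 CPM in control libraries and 1045, 1060.2 and 987 CPM in knockout libraries. All knockouts were far below all controls, and control 1 was no exception. The fitted log2 change was −0.89 ± 0.11 (SE, edgeR adjusted p = 0.00175), or 1.86-fold lower, and stayed between −0.96 and −0.85 when any 1 library was left out. Without control 1 it was −0.85. With library size in place of TMM the log2 change of Lrp1 was −0.30 (edgeR adjusted p = 0.0401). Scarb1, the receptor for selective uptake from high-density lipoprotein, had 244, 264 and 253 CPM in control libraries and 255, 268 and 244 CPM in knockout libraries, a log2 change of 0.01 ± 0.10 (SE, edgeR adjusted p = 0.952), and −0.02 without control 1. Leaving out any 1 library kept the log2 change of Scarb1 within −0.04 and 0.03, and library size in place of TMM gave 0.60, the same as the median of all genes (edgeR adjusted p = 0.00339). The upstream window of Lrp1 (chr10:127621149-127621398, minus strand), shown as the called receptor, held 1 GC box in a stretch rich in pyrimidines, and 208 of its 250 bases lay in a control ChIP region.
Lrp1: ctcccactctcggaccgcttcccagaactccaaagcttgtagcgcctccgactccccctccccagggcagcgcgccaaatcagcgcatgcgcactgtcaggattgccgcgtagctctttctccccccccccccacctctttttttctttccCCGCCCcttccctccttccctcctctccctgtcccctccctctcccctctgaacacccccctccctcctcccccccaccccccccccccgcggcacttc

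Abcg5 and Abcg8 encode the partners of one heterodimer, which exports sterols into bile. Abcg5 had 52.9, 104 and 112 CPM in control libraries and 47.3, 36.7 and 62.9 CPM in knockout libraries. Abcg8 had 70.7, 200.2 and 199.7 CPM in control libraries and 80.0, 73.5 and 110.1 CPM in knockout libraries. In both genes controls 2 and 3 were above every knockout, while control 1 was within the knockout range for Abcg5 and below every knockout for Abcg8. The log2 changes were −0.87 ± 0.32 and −0.84 ± 0.40 (SE, edgeR adjusted p = 0.0848 and 0.173), and −1.15 and −1.19 without control 1 (edgeR adjusted p = 0.00615 and 0.00136). The annotated genes share 6710 bases on opposite strands, so their reads may not be fully separated and the genes are not independent observations. Abcg5 starts at base 84683011 of chromosome 17, and a RefSeq start of Abcg8 lies at base 84683121 in the opposite direction. The 109 bases between them (chr17:84683012-84683120, plus strand), printed because both genes moved together and chosen after their values were seen, held none of the motifs and no ChIP region of either genotype.
Abcg5-Abcg8: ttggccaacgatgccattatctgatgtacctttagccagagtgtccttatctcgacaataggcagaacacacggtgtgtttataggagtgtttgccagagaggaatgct

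Abca1, which loads cholesterol onto apolipoprotein A-I, had 114, 85.3 and 99.4 CPM in control libraries and 82.0, 84.0 and 82.5 CPM in knockout libraries. The groups did not overlap, but control 2 was close to the knockouts and the log2 change of −0.27 ± 0.13 did not pass (SE, edgeR adjusted p = 0.155) and was 0.33 with library size in place of TMM (edgeR adjusted p = 0.0414). Without control 1 it was −0.16. Soat2, which esterifies cholesterol in hepatocytes, had 44.5, 89.1 and 85.4 CPM in control libraries and 56.8, 48.6 and 79.8 CPM in knockout libraries. These overlapped, with a log2 change of −0.24 ± 0.30 (SE, edgeR adjusted p = 0.583), and −0.50 without control 1 (edgeR adjusted p = 0.0902). The macrophage markers, summed, were higher in every knockout than in every control and the hepatocyte markers lower, as given above; their part in the levels of Abca1, Lrp1 and Soat2 was not tested.

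Around these genes, 36 other genes of sterol sensing, side branches, endosomal transfer, lipoprotein uptake and efflux were listed and 35 were tested. Of the 35, 5 rose, near the 12.6% of all tested genes that did, none fell, against 13.0%, and the median log2 change was 0.06. Gramd1b, which moves cholesterol from the plasma membrane to the endoplasmic reticulum, was at 2.77 ± 0.347 CPM in control libraries and 8.87 ± 1.35 CPM in knockout libraries (SD, n = 3; log2 change 1.68 ± 0.21, SE, edgeR adjusted p = 0.00171). Npc2, the lysosomal cholesterol carrier, was at 73.7 ± 3.23 and 111 ± 4.08 CPM (SD, n = 3; log2 change 0.59, edgeR adjusted p = 0.00486). Gramd1a and Soat1, a relative of Gramd1b and the esterifying enzyme of many non-hepatocyte cells, rose by 0.51 and 0.72 on the log2 scale (edgeR adjusted p = 0.0221 and 0.0255). Of these 4, Gramd1b and Npc2 passed in each fit that left out 1 library, while the edgeR adjusted p reached 0.0856 for Gramd1a and 0.0882 for Soat1. Without control 1 the log2 changes were 1.77 for Gramd1b, 0.63 for Npc2, 0.46 for Gramd1a and 0.71 for Soat1, and each passed. The next genes by adjusted p, Osbp, Mylip and Nr1h3, had log2 changes of −0.45, 0.49 and 0.20 and did not pass.

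ChIP regions gave a separate readout at the same genes. With 1 library per genotype there is no replicate and no test between genotypes. The authors' control list held 16995 distinct regions and their knockout list 1309. Within 1000 bases of the annotated start, 20 of the 30 members had a control region, against 31.9% of tested genes, and 1 member, Insig1, had a knockout region, against 2.01%. Anywhere in the gene body, 20 members had a control region, against 39.2%, and 1 a knockout region, against 3.9%. The members all had control means of at least 10.9 CPM, whereas the tested genes included some near 0.13 CPM. The shares were not matched for RNA level, so they are not shown to be particular to cholesterol genes. By role, the control regions at starts were at 3 of 4 regulators, 6 of 8 mevalonate and isoprenoid enzymes, 7 of 11 late enzymes, Stard4, both receptors, 1 of 3 transporters and not Soat2. The members without a control region at the start were Insig2, Mvk, Pmvk, Fdft1, Sqle, Tm7sf2, Nsdhl, Abcg5, Abcg8 and Soat2. Of the 7 genes called in RNA, 5 had a control region at the start (Scap, Acat2, Fdps, Dhcr7 and Lrp1), and these include genes that rose and genes that fell.

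Insig1, singled out here after its regions were seen, was covered along its whole length. A single control region of 9356 bases (chr5:28070849-28080204) with 18 summits covered 100% of the gene, which only 38 of the 15135 tested genes (0.251%) had. The region's highest summit, 5923 bases into the gene, had a fold enrichment of 17.9 in the authors' list. The control summits nearest the start, at −285 and 34 bases, had fold enrichments of 8.33 and 8.22. The median control region was 381 bases long. In the knockout list 10.9% of the gene was covered, in 3 regions within it. The knockout region at the start (chr5:28071067-28071480) had a fold enrichment of 4.57, and the highest in the gene, at 4916 bases, had 5.63. The Insig1 RNA, as given above, did not pass the test. Lrp1 was covered over 58.8% of its length by 54 control regions and by none in the knockout list; 189 tested genes (1.25%) were covered as much or more.

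At the starts of the other members the highest fold enrichments in the authors' control list were 14.9 at Msmo1, 12.4 at Lrp1, 11.0 at Ggps1 and 10.6 at Acat2. Insig2 had no region at its outermost annotated start, base 121332589 of chromosome 1. A control region with a fold enrichment of 10.6 (chr1:121327150-121328332) did cover 2 other RefSeq starts of Insig2, at bases 121328024 and 121327678, and no knockout region lay in the gene.

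**Figure D4:**
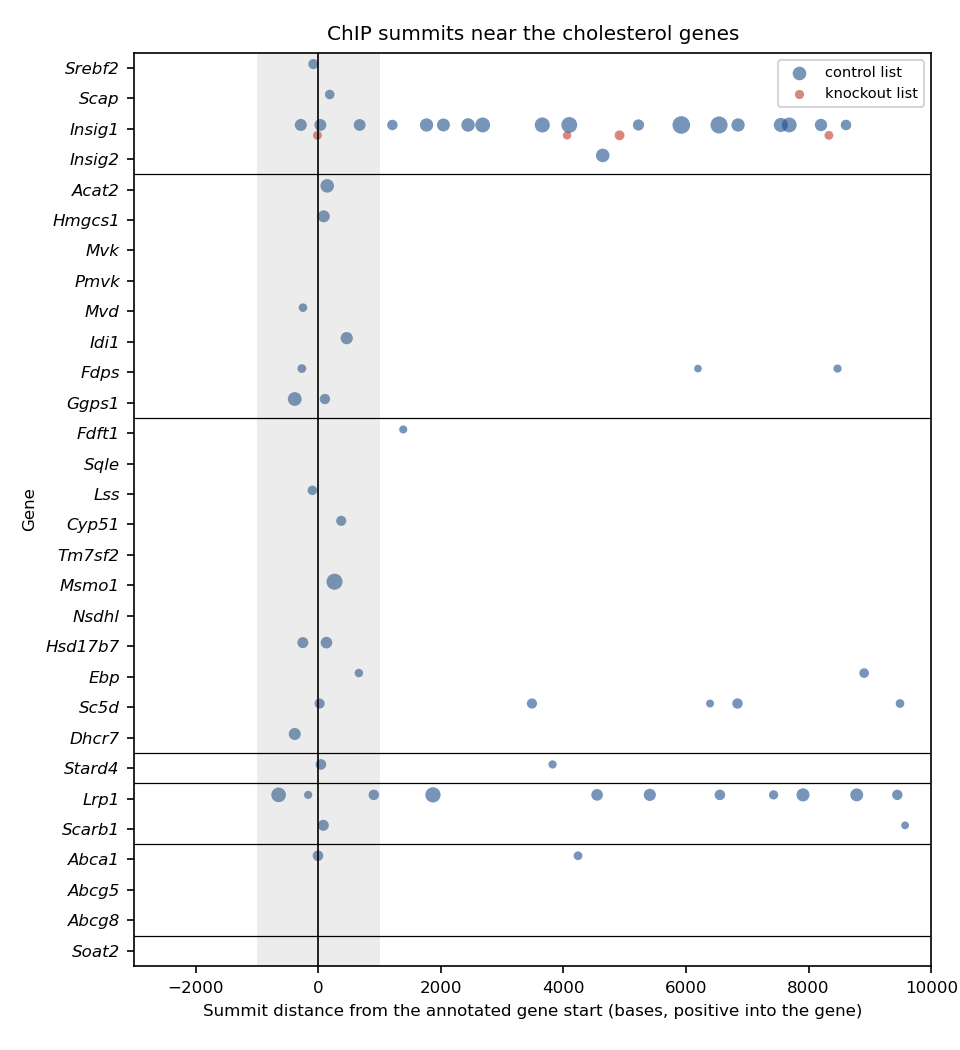
Position of each ChIP summit relative to the annotated gene start (horizontal axis, bases, positive into the gene) for each gene, control list in blue and knockout list in red, with larger points for a higher fold enrichment; grey marks 1000 bases on either side of the start. Control summits cluster at the starts of 20 genes and run the length of Insig1 and past its end. All the knockout summits shown lie in or near Insig1.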

How the data were processed

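RNA sequencing measured 3 control and 3 knockout hepatocyte libraries, and ChIP sequencing 1 of each. The submitters' processing notes list HISAT2 2.1.0, HTSeq 0.6.0, DESeq2, Bowtie2 2.2.3, BWA, SAMtools, deepTools and MACS2, with no settings. The deposited table gives whole-number counts per gene, with the authors' fold changes, log2 fold changes and p-values. The deposited ChIP lists give a score, the fold enrichment (a signal value) and −log10 p and q values per summit, as the authors' peak caller wrote them.

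From the counts, edgeR 4.0.16 (limma 3.58.1, R 4.3.3) was fitted with TMM factors, a low-count filter (minimum count 10, total 15), the quasi-likelihood test, two-sided, and Benjamini-Hochberg adjustment over 15135 genes; the threshold was 0.05. SE is the absolute log2 change divided by the square root of F. The code was checked on simulated counts. Regions were matched to gene starts within 1000 bases, with at least 1 base of overlap. The genes named are the 30 members, the targeted gene, and up to 8 other pathway genes with the smallest adjusted p, of which a gene is not reported here; upstream sequences are printed for at most 6 genes, largest absolute log2 change first among those with a sequence. Members, lists and tests were chosen with earlier results of these data known. Alternatives were other scaling, DESeq2 1.42.0, no filter, a replicate block, leaving out each library, and other ChIP windows and thresholds; the fold for setting control 1 apart was chosen after seeing the data.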

Additional observations from a re-analysis of the deposited data

How the results depend on the processing

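With library size alone, 8328 genes were called and 13 members passed higher; the medians were 0.70 for the synthesis genes and 0.03 for uptake, efflux and esterification, 92.6% of calls were higher against 49.3% with TMM, and the log2 changes of Insig1 (0.21), Hmgcs1 (0.21), Cyp51 (0.39), Nsdhl (0.55), Hsd17b7 (0.45), Ebp (0.36), Abca1 (0.33) and Soat2 (0.34) turned positive. Nsdhl also turned with upper-quartile factors (0.04), and Scarb1 with DESeq2 (−0.0021). DESeq2 called 4378 genes, among them 9 members, the same 7 with Sc5d and Abcg5.

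Leaving out 1 library at a time gave 2236 to 4921 called genes, 0 to 4 members higher and 4 to 7 lower. The 4921 came from the fit without control 1, and leaving out any other library gave 2236 to 2667. The synthesis median then ran from 0.02 to 0.40 and the other from −0.68 to −0.45. Scap, Insig2, Fdps and Lrp1 passed in each of these 6 fits. Log2 changes that changed sign in them ran from −0.10 to 0.44 for Srebf2, −0.12 to 0.32 for Pmvk, −0.24 to 0.62 for Idi1, −0.36 to 0.06 for Cyp51, −0.35 to 0.18 for Nsdhl, −0.40 to 0.40 for Hsd17b7, −0.04 to 0.23 for Stard4 and −0.04 to 0.03 for Scarb1; the cause was not tested.

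The replicate numbers were not shown to pair libraries: deviations of same-numbered libraries correlated at 0.11, 0.0521 and 0.0937, although each correlated best with its own number. With the replicate number as a block, 3468 genes were called, and the same 7 members passed.

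For ChIP, stricter regions (−log10 q of at least 5) left control regions at 20.6% of tested starts and at 15 members, and knockout regions at 0.859% and at 0 members. A 3000-base window gave 34.8% and 2.72%, and the gene body 39.2% and 3.9%. At a 2-fold threshold, control 1 was above both other controls for 7 members. Depth limits Fdps most, with 68 counts in its lowest library.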

Other observations

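The authors' deposited table held the same log2 changes and adjusted p for the members as the DESeq2 fit above, so the 2 are not independent. It marked 2 of the 30 genes as significant, Insig2 and Fdps. At an adjusted p under 0.05 that table held 3 members higher and 6 lower, while DESeq2 called 4378 genes, 48.0% of them higher. Lrp1 was not marked although its DESeq2 adjusted p was 9.7e-10, so the mark did not rest on this threshold alone.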
